A study of Gorilla gorilla gorilla with 13 samples.

Results

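Basal radial glia (bRG) and apical radial glia (aRG) of the gorilla were compared gene by gene, 4 libraries against 4. These are 8 of the 13 libraries of the study, and they were chosen by their labelled cell type alone. Both populations came from cerebral organoids, which are brain-like tissues grown in suspension from pluripotent stem cells. The organoids were made from 1 induced pluripotent stem cell line, GC1, and were collected at week 8, give or take 3 days. The labels name no treatment and no genetic change in either population. Each library was a bulk Smart-seq2 library, amplified by PCR and without molecular identifiers, from RNA of 10000 cells separated by flow cytometry. The remaining 5 libraries hold 3 of basal intermediate progenitors (bIP) and 2 of BCL11B+ neurons (N). The sources used here do not give the sort antigens of the radial glia. All values stand for a single line. It is not stated whether the libraries of 1 population were separate cultures. A p-value here therefore compares with the spread of these libraries only, and that spread may be technical.

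Apical radial glia are the stem cells that line the ventricle of the developing cortex, held there by adherens junctions. Their nuclei move to the ventricular surface to divide, and their daughters include intermediate progenitors, neurons and basal radial glia. Basal radial glia have lost the ventricular contact, keep a basal process, and are abundant in the outer subventricular zone of primates.

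Total counts ran from 5464721 (bRG library 1) to 10551184 (bRG library 3), and 16534 (bRG library 3) to 17756 genes had a count. bRG library 3 stood apart from the other 7. On the first principal component of the 1000 most variable genes (54.9% of the variance) it scored 91.6, and the other 7 lay between -20.2 and -4.57. The nuclear noncoding RNA MALAT1 took 21.3% of its counts in the table aligned to the gorilla build, against 6.85% to 10.4% in the other 7. The second component (15.6%) separated aRG (2.56 to 34.9) from bRG (-24.7 to -3.96). The total count of lower genes is therefore given with and without bRG library 3. A list's count of lower genes without it is given where it differs.

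The sorted populations both carried the radial glia transcription factors, and they differed most clearly in the proliferation marker. PAX6, a transcription factor of cortical progenitors, measured 889, 672, 532 and 598 normalised counts (CPM, scaled to a common library size) in aRG libraries 1 to 4 and 713, 598, 1088 and 673 in bRG libraries 1 to 4. The groups overlapped throughout. Its log2 fold change, always given as bRG minus aRG, was 0.19 (edgeR's quasi-likelihood test, adjusted p = 0.861). SOX2, the neural stem cell factor, measured 643, 424, 240 and 266 CPM in aRG and 367, 221, 330 and 212 in bRG, and again overlapped (-0.48, edgeR adjusted p = 0.749).

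HOPX is a homeobox gene used as a marker of basal (outer) radial glia. It measured 120, 222, 70.9 and 187 CPM in aRG and 56.1, 108, 41.3 and 57.7 in bRG. The bRG libraries thus did not have the higher values, although bRG library 2 lay above aRG library 3. The log2 fold change was -1.19 (SE 0.365, edgeR adjusted p = 0.196), so HOPX gave no support to the bRG label, and bRG below means the libraries that bear it. EOMES, the transcription factor that marks intermediate progenitors, measured 245, 158, 39.9 and 129 CPM in aRG and 427, 320, 460 and 260 in bRG. Every bRG library lay above every aRG library, with a small gap between aRG library 1 and bRG library 4. The difference of 1.36 (SE 0.437) did not pass the test (edgeR adjusted p = 0.232). It was called by limma-voom with a quality weight per library (1.71, adjusted p = 0.0485).

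MKI67, which encodes the Ki-67 protein of cycling cells, measured 1405, 876, 668 and 1137 CPM in aRG and 295, 248, 460 and 281 in bRG. All 4 bRG libraries were lower than all 4 aRG libraries. It fell by 1.67 on the log2 scale (edgeR adjusted p = 0.011), and the call ended without bRG library 4 (adjusted p = 0.0541). In bulk libraries, fewer cells of a type and less RNA per cell cannot be told apart. This holds for every gene below.

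**Figure D1:**
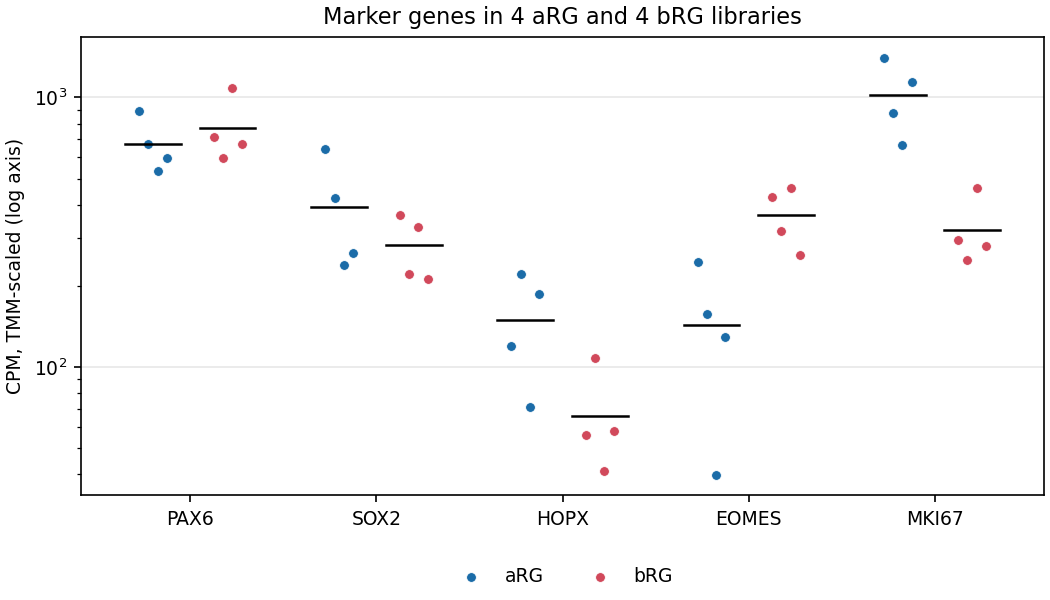
Points are CPM values of single libraries (log axis), 4 of aRG and 4 of bRG for each of 5 marker genes, and black bars are means. PAX6, SOX2 and HOPX overlap between the populations, EOMES lies higher and MKI67 lower in every bRG library.

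Nearly all genes that changed were lower in bRG. Of 16804 genes tested, 206 fell (1.23%) and 5 rose (0.0298%), at an adjusted p under 0.05 in edgeR's quasi-likelihood test. The median log2 fold change over all genes tested was 0.04. The scaling to a common library size places this median near 0 by design, so it is no result of its own. In all 206 the aRG and bRG values did not overlap, against 673 lower genes (4.00%) without overlap among all tested. Of the 206, 105 were at least 4-fold lower. Genes on a list of the cell cycle, DNA replication or repair made up 139 of the 206 (of 287 tested), and 67 were on none of these lists (of 16517 tested).

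Single libraries weighed on these counts. aRG library 4 had the highest aRG value for 156 of the 206 genes, and bRG library 3 the lowest bRG value for 98. Without aRG library 4 the number of lower genes was 130, of which 99 were on a cell cycle list and 31 were not. Without bRG library 3 it was 234, of which 151 were on a list and 83 were not. When each of the 8 libraries was left out in turn, 121 of the 206 genes were called every time (93 on a cell cycle list and 28 on none). Among the 5 that rose, only SLCO5A1 was. The count table aligned to the gorilla build, gorGor6, gave 191 lower genes (0.496% of 38520 tested) and 0 higher by edgeR, with 869 (2.26%) higher at an unadjusted p under 0.05. It called 177 of the 206, of which 199 were tested there. DESeq2 called 334 genes lower (2.30% of 14516) and 40 higher (0.276%).

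**Figure D2:**
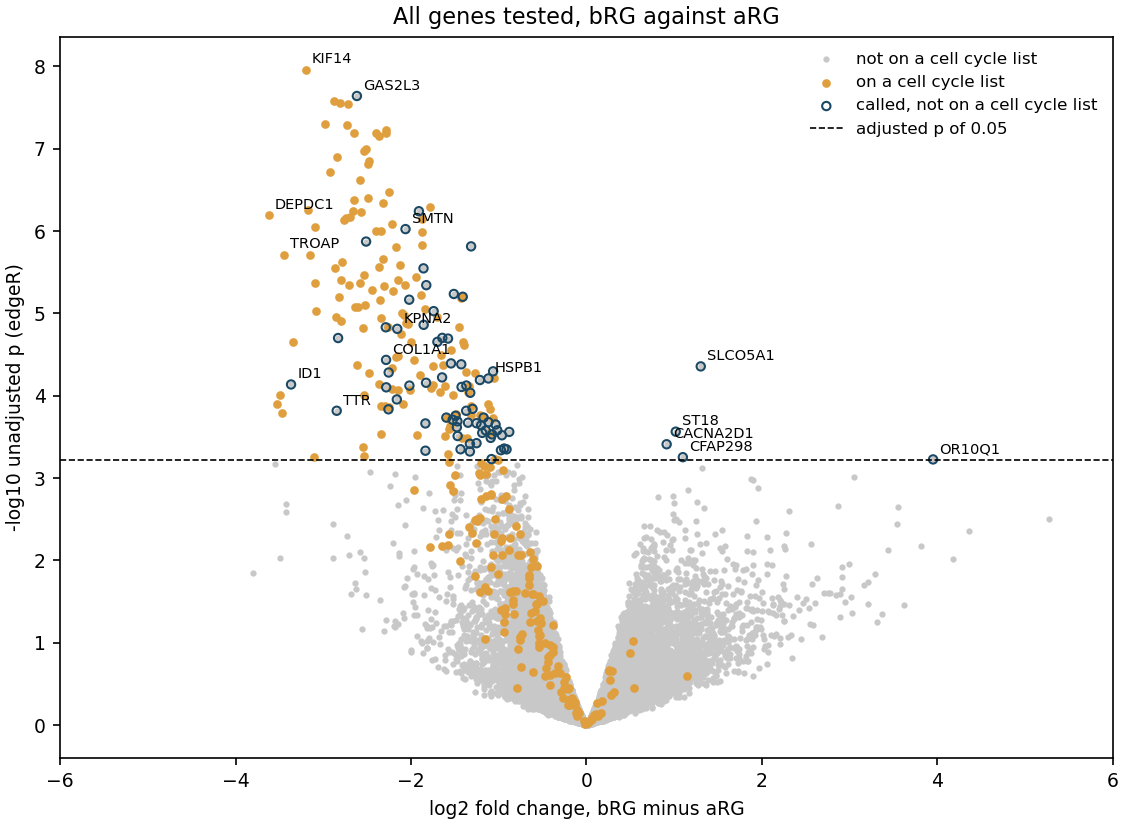
Each point is 1 of 16804 genes, placed by its log2 fold change (bRG minus aRG) and by the -log10 of its unadjusted p from edgeR. Orange points are genes of cell cycle lists, which fill the upper left, and open circles are called genes on none of these lists, of which 5 lie on the right.

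Genes that carry cells into and out of mitosis fell as a block. Of 48 tested members of the list, 40 fell and none rose, with a median log2 fold change of -2.31. The 40 became 33 without aRG library 4, 34 without bRG library 4 and 39 without bRG library 3. TOP2A, the topoisomerase that untangles mitotic chromosomes, measured 1206, 709, 602 and 1303 CPM in aRG and 156, 146, 217 and 159 in bRG. The lowest aRG library held more than the highest bRG library by a wide margin. TOP2A stood at -2.49 (SE 0.298, edgeR adjusted p = 0.000153). TTK, a kinase of the spindle checkpoint, had a log2 fold change of -2.54, AURKA, a kinase of the spindle poles, one of -2.49, and CDC25C, the phosphatase that switches on mitosis, one of -2.92.

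Among motors and cytokinesis genes, 35 of 44 fell (median -2.27). This count was 26 without aRG library 4, 28 without bRG library 4 and 36 without bRG library 3. KIF14, a kinesin of the midbody that is also mutated in primary microcephaly, measured 298, 187, 264 and 431 CPM in aRG and 39.3, 39.8, 21.9 and 27.4 in bRG. The bRG values were low in all 4 libraries. KIF14 had an edgeR adjusted p of 9.75e-05 and a difference of -3.20 on the log2 scale. KIF23, a motor that organises the central spindle, measured 315, 165, 190 and 352 CPM in aRG and 37.1, 34.9, 39.0 and 44.1 in bRG. Its bRG libraries were close to each other. KIF23 fell by 2.72 on the log2 scale (edgeR adjusted p = 9.75e-05).

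The proteins that attach and separate chromosomes followed. Of 55 tested genes of kinetochore, checkpoint, cohesin and condensin, 33 fell (median -1.37). The 33 became 23 without aRG library 4, 24 without bRG library 4 and 37 without bRG library 3. NUF2, a part of the kinetochore complex that holds microtubules, measured 844, 522, 618 and 1096 CPM in aRG and 156, 77.2, 149 and 109 in bRG. No bRG library reached the lowest aRG library, and NUF2 fell by 2.65 (SE 0.298, edgeR adjusted p = 9.88e-05). The checkpoint kinase BUB1 (-2.40), its relative BUB1B (-2.73) and the cohesin protector SGO2 (-2.88) fell too. The 22 members that did not pass included BUB3 and the cohesin subunit RAD21, both named after their values were seen.

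Of 27 genes of primary microcephaly and the centriole, 12 fell (9 without aRG library 4, 14 without bRG library 3, median -1.05). ASPM, a spindle pole protein whose loss makes the cortex small, measured 1015, 505, 520 and 736 CPM in aRG and 142, 87.9, 155 and 102 in bRG. The groups lay far apart, with a log2 difference of -2.51 (SE 0.291, edgeR adjusted p = 0.000129). CIT, a kinase of cytokinesis (-2.28), CEP135, a centriole scaffold (-1.79), and STIL, which starts centriole duplication (-2.14), fell too. The other 15 did not pass the test.

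The 10 largest falls among well expressed genes were all on a list of the cell cycle, DNA replication or repair. DEPDC1, a gene of dividing cells, measured 58.2, 48.5, 99.9 and 171 CPM in aRG and 10.4, 6.23, 4.60 and 9.52 in bRG. No library lay between the groups. It had the largest of these log2 fold changes, -3.62 (SE 0.479, edgeR adjusted p = 0.000369). PIF1, a DNA helicase, measured 881, 550, 558 and 558 CPM in aRG and 98.6, 78.8, 0.472 and 43.3 in bRG. bRG library 3 was almost empty of it. PIF1 fell by 3.53, and the call ended without bRG library 4 (edgeR adjusted p = 0.0706).

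KIF18B, a kinesin of astral microtubules, had a log2 fold change of -3.49, and its call ended without aRG library 4 or bRG library 1 (edgeR adjusted p = 0.0641 and 0.0542). CDCA5, the cohesin protector sororin, was at -3.47, and its call ended without aRG library 4 or bRG library 4 (edgeR adjusted p = 0.0988 and 0.0747). Its bRG values of 14.9, 11.9, 0.118 and 2.57 CPM were spread, and the aRG values were 83.5, 51.1, 64.0 and 124. The remaining 6 were called in every removal. They were TROAP, a spindle-associated protein (-3.45), CEP55, a protein of the final cut between daughter cells (-3.35), KIF14, the microtubule-binding PSRC1 (-3.17), the MAX-binding transcription factor MXD3 (-3.15) and the spindle protein CKAP2L (-3.10).

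Genes of DNA synthesis had a median nearer to 0. Of 63 replication genes, 14 fell (median -0.76), and 40 had an unadjusted p under 0.05 in this direction, against 6.19% of all genes tested. The 14 became 8 without aRG library 4, 9 without bRG library 4, 15 without bRG library 3 and 21 with DESeq2. RRM2, the subunit of ribonucleotide reductase that sets the supply of DNA building blocks, measured 312, 253, 325 and 530 CPM in aRG and 93.1, 82.1, 59.1 and 74.4 in bRG. Even the lowest aRG library was above all bRG libraries. RRM2 fell by 2.20 (SE 0.343, edgeR adjusted p = 0.00144). MCM10, a replication initiation factor, measured 141, 91.9, 102 and 116 CPM in aRG and a narrow 42.7, 43.2, 44.8 and 38.3 in bRG (-1.42, edgeR adjusted p = 0.00157). CDC45, part of the replicative helicase (-1.40), and FEN1, which trims lagging strand fragments (-1.55), fell as well.

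Of 34 genes of homologous recombination and crosslink repair, 12 fell (median -0.96). This count was 4 without aRG library 4, 8 without aRG library 1, 15 without bRG library 3 and 17 with DESeq2. POLQ, the polymerase of microhomology-mediated end joining, measured 242, 146, 175 and 228 CPM in aRG and 55.7, 57.3, 61.7 and 40.5 in bRG. The groups did not come close (-1.88, SE 0.257, edgeR adjusted p = 0.00044). FANCD2, a Fanconi anaemia protein, fell as well (-1.65).

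Among the regulators of entry into S phase, 1 of 27 tested fell (median -0.42). A negative fold change was found for 19. An unadjusted p under 0.05 was found for 9, all lower (33.3%, against 6.19% of all genes tested). Of the 27, 7 lay lower without overlap, against 4.00% of all genes tested. DESeq2 called 3 lower, as did edgeR without bRG library 3, and edgeR called 2 without bRG library 1. The 1 that fell was E2F8, a repressor of the E2F family, with 38.7, 29.1, 34.8 and 76.4 CPM in aRG and 11.3, 7.34, 5.42 and 11.4 in bRG (-2.34, SE 0.386, edgeR adjusted p = 0.00232). The cyclin-dependent kinase inhibitor CDKN2D stood at -1.97 (edgeR adjusted p = 0.0891) and MYBL2, a transcription factor of cycling cells, at -1.56 (adjusted p = 0.0794). CCND2 and CDK6, a G1 cyclin and its kinase, were among the 8 with a positive fold change and are named after their values were seen. CCND2 measured 370, 310, 712 and 791 CPM in aRG and 375, 310, 859 and 741 in bRG. In both populations libraries 3 and 4 were high and libraries 1 and 2 low, and the log2 fold change was 0.07 (SE 0.341). CDK6 stood at 0.31 (SE 0.361), with overlapping groups.

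**Figure D3:**
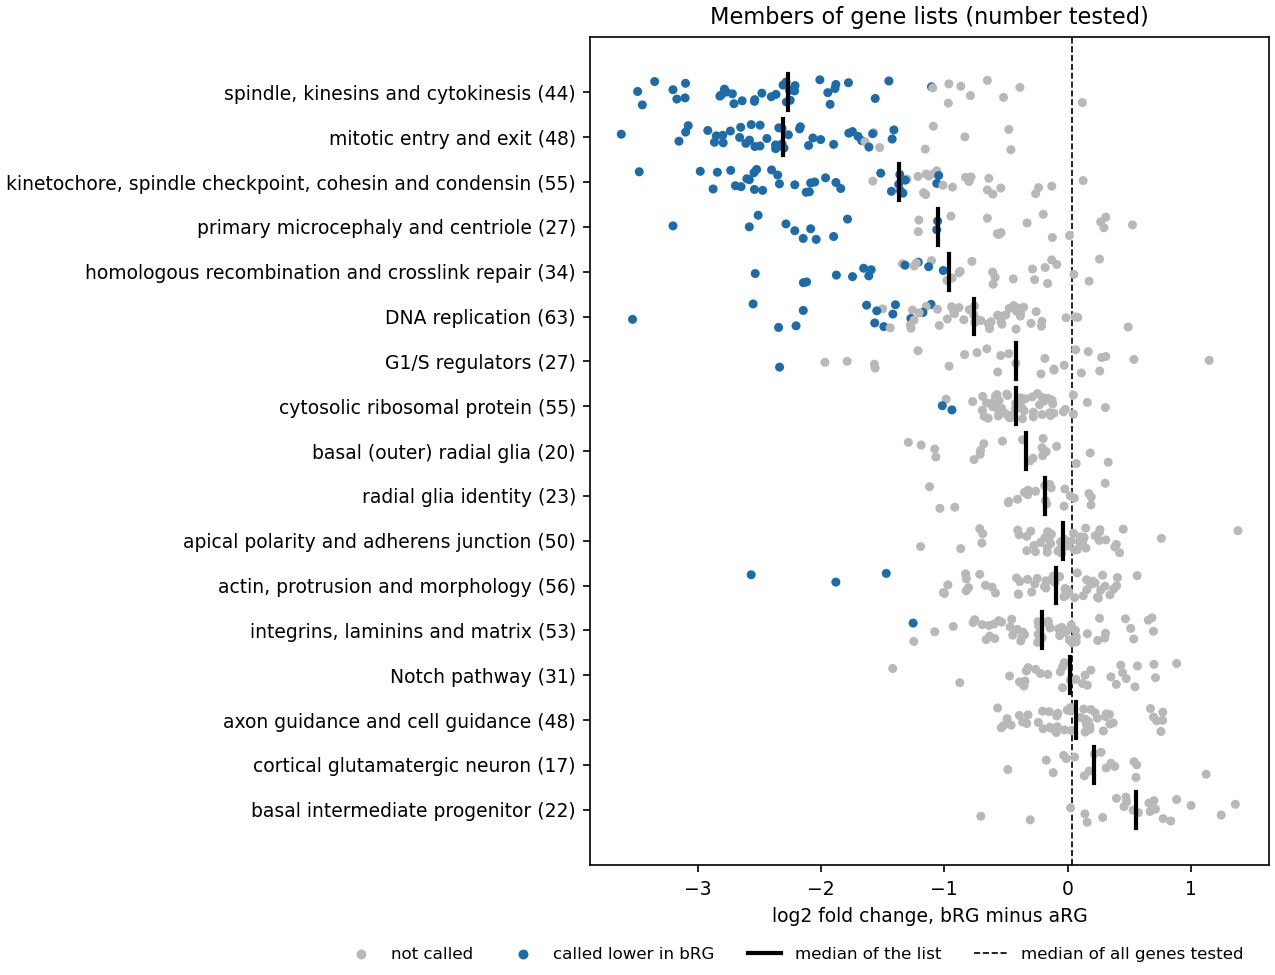
Rows are gene lists with the number tested in brackets, points are the log2 fold changes of members (bRG minus aRG), black bars are list medians and the dashed line is the median of all genes tested, 0.04. Called genes (blue) fill the mitotic lists at the top, with medians near -2.3, and the intermediate progenitor list at the bottom has a median of 0.55 with no member called.

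Outside the cell cycle, radial glia identity showed no called gene. Of 23 members of the list, 0 were called by edgeR, the median was -0.18, and 2 had an unadjusted p under 0.05, both lower. DESeq2 called 2 members lower, and edgeR called 2 without aRG library 3 and 1 without bRG library 3. FABP7, a lipid-binding protein of radial glia, measured 223, 316, 192 and 462 CPM in aRG and 102, 119, 163 and 165 in bRG. The groups did not overlap, yet the difference of -1.12 (SE 0.281) missed the threshold (edgeR adjusted p = 0.065). VIM, the intermediate filament vimentin, measured 528, 478, 271 and 607 CPM in aRG and 251, 200, 317 and 231 in bRG. It overlapped through bRG library 3 and aRG library 3 (-0.91, edgeR adjusted p = 0.101), and without bRG library 3 it was called (-1.05, adjusted p = 0.0377).

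Genes reported for basal (outer) radial glia were not higher in bRG. Of 20 members 0 were called, 17 had a negative fold change and the median was -0.34. Of the 20, 6 had an unadjusted p under 0.05, all lower (30.0%, against 6.19% of all genes tested). DESeq2 called 1 member lower, as did limma-voom with quality weights, and edgeR with the replicate number as a block called 2. PTN, the secreted growth factor pleiotrophin, measured 3209, 2057, 1775 and 2943 CPM in aRG and 1476, 647, 1266 and 1371 in bRG. All bRG libraries were below all aRG libraries, at -1.07 (SE 0.299, edgeR adjusted p = 0.127). SDC3, a heparan sulfate proteoglycan that binds pleiotrophin, stood at -0.76 (edgeR adjusted p = 0.401) with overlap.

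Genes of basal intermediate progenitors had a list median of 0.55, again with 0 of 22 called by edgeR. Positive fold changes were found for 20 of the 22, and 6 had an unadjusted p under 0.05 in this direction, against 3.28% of all genes tested. DLL1, a Notch ligand shown by committed progenitors, measured 92.3, 125, 126 and 174 CPM in aRG and 241, 167, 189 and 360 in bRG. The groups overlapped slightly, at aRG library 4 and bRG library 2 (0.89, SE 0.272, edgeR adjusted p = 0.195). SSTR2, a somatostatin receptor, stood at 0.84 (edgeR adjusted p = 0.197), and limma-voom with quality weights called it (1.06, adjusted p = 0.0303). ELAVL4, an RNA-binding protein of young neurons, measured 219, 175, 143 and 167 CPM in aRG and 330, 255, 298 and 230 in bRG, without overlap (0.66, SE 0.208, edgeR adjusted p = 0.21). Summed over the list, levels were 840 to 1193 CPM in aRG and 1583 to 1942 in bRG. Whether intermediate progenitors within the bRG sort took part in this was not tested.

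Genes of apical polarity and the adherens junction were near the median of all genes. Of 50 tested, 0 were called by edgeR, with 3 lower and 2 higher at an unadjusted p under 0.05 and a median of -0.04. DESeq2 called 1 lower, as did edgeR without bRG library 3. PLEKHA7, which ties junctions to microtubules, measured 70.3, 48.7, 71.6 and 67.0 CPM in aRG and 29.2, 30.3, 35.5 and 46.2 in bRG. The highest bRG library fell just short of the lowest aRG library (-0.87, SE 0.249, edgeR adjusted p = 0.144). ADD3, a protein of the membrane skeleton, stood at -0.71 (edgeR adjusted p = 0.21) and was called without bRG library 3 (-0.90, adjusted p = 0.0295). CDH1, epithelial cadherin, stood at 1.38 from very low counts in both populations. PROM1 and CRB1, apical membrane proteins named after their values were seen, stood at 0.06 (SE 0.373) and 0.05 (SE 0.265).

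The signalling pathways held 1 called gene. Lists of Notch (31 tested, median 0.02), Wnt (50, median -0.14), FGF (32, median -0.13) and hedgehog with primary cilium genes (42, median 0.00) had none by edgeR. At an unadjusted p under 0.05 they held 0, 4, 0 and 2 lower and 1, 1, 0 and 0 higher genes, and DESeq2 called none of them lower. Without bRG library 3, edgeR called 1 gene of the hedgehog and cilium list lower. Of 39 genes of BMP and TGF-beta signalling, 1 fell. It was ID1, a target of BMP that blocks basic helix-loop-helix factors, with 17.0, 21.0, 22.4 and 19.9 CPM in aRG and 4.27, 1.56, 0.118 and 2.00 in bRG. The aRG libraries were even and all bRG libraries were low. The log2 fold change was -3.37 (SE 0.654, edgeR adjusted p = 0.00973), and the call remained in every removal. ID3, a second member of this family, measured 20.8, 17.0, 32.1 and 20.9 CPM in aRG and 8.72, 7.56, 11.8 and 6.95 in bRG. It did not overlap either, but did not pass (-1.38, SE 0.444, edgeR adjusted p = 0.235).

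The 67 lower genes on no cell cycle list were sorted by known role after their values were seen. The largest group, 24 genes, was still of cell division, the centrosome, replication or repair (median -1.62). GAS2L3, which links actin and microtubules in the midbody, measured 132, 123, 171 and 243 CPM in aRG and 28.7, 30.3, 29.1 and 21.0 in bRG. The bRG libraries were almost equal. It fell by 2.62 (SE 0.274, edgeR adjusted p = 9.75e-05). MZT1, a part of the complex that seeds microtubules (-2.25), and REEP4, which keeps endoplasmic reticulum off mitotic chromosomes (-2.29), fell too. Of the genes with no role assigned here, C21orf58 fell by 2.51. RNF26, a ubiquitin ligase of the endoplasmic reticulum, fell by 2.28, and its call ended without aRG library 4 (edgeR adjusted p = 0.0635).

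A group of 7 genes of nuclear transport, the nuclear envelope or RNA handling had a median of -1.37. KPNA2, an importin that carries proteins into the nucleus, measured 607, 363, 399 and 1225 CPM in aRG and 124, 101, 181 and 175 in bRG. aRG library 4 held the highest value by far. KPNA2 fell by 2.16 (SE 0.365, edgeR adjusted p = 0.00284) and was called in every removal.

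Of 56 genes of actin, protrusion and cell shape, 3 fell and the median was -0.09. The count was 5 without bRG library 3 and with DESeq2, and 2 without aRG library 4, bRG library 1 or bRG library 4. ARHGAP11A and DIAPH3 are also on cell cycle lists, so ACTB was the 1 call on none. ARHGAP11A, a GTPase-activating protein, measured 68.8, 62.9, 60.0 and 118 CPM in aRG and 13.3, 15.0, 16.6 and 7.42 in bRG (-2.57, edgeR adjusted p = 0.000349). It has a human-specific partial copy, ARHGAP11B, and its reads on a human build can be split with that copy. DIAPH3, a formin that builds actin filaments, fell by 1.88 (edgeR adjusted p = 0.00061). ACTB, cytoplasmic beta-actin, measured 1446, 1960, 1815 and 4688 CPM in aRG and 914, 1121, 813 and 728 in bRG. aRG library 4 was far above all other libraries, and the call of ACTB (-1.47, edgeR adjusted p = 0.0203) ended without that library (0.108), without bRG library 1 (0.0725) and without bRG library 4 (0.0906).

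SMTN, smoothelin, an actin-binding protein of contractile cells, was chosen after its values were seen. It measured 87.1, 78.5, 83.1 and 108 CPM in aRG and 25.0, 27.9, 13.2 and 19.5 in bRG. The highest bRG library lay well below the lowest aRG library. SMTN had a log2 difference of -2.06 (SE 0.281, edgeR adjusted p = 0.00044) and was called in every removal. RTKN2 measured 185, 130, 123 and 232 CPM in aRG and 40.3, 25.1, 2.95 and 26.2 in bRG, and fell by 2.83 (edgeR adjusted p = 0.00356). TUBB, a beta-tubulin also chosen after its values were seen, fell by 1.47, and its call ended without aRG library 4 (edgeR adjusted p = 0.144) and without bRG library 1, 2 or 3 (0.0753, 0.0784 and 0.0568). Actins and tubulins have near-identical copies, so their counts are uncertain.

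Of the 67, 6 called genes were of transcription or chromatin (median -1.63). FOXN4, a forkhead factor of progenitors, measured 92.1, 97.2, 75.9 and 151 CPM in aRG and 26.3, 26.8, 3.30 and 30.7 in bRG. It was lowest in bRG library 3. It fell by 2.26 (SE 0.468, edgeR adjusted p = 0.0158), and the call ended without aRG library 4 (0.0939). PHF19, a partner of the Polycomb repressive complex, was the 1 of 42 chromatin regulators that fell, with 118, 103, 77.4 and 106 CPM in aRG and 20.5, 38.5, 51.6 and 39.8 in bRG (-1.42, SE 0.278, edgeR adjusted p = 0.00991). It was called in every removal.

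A further 5 called genes encode secreted, matrix or surface proteins (median -1.25). TTR, transthyretin, the carrier protein that choroid plexus secretes, measured 5049, 1541, 7626 and 3834 CPM in aRG and 1177, 170, 684 and 479 in bRG. Both groups were wide, without overlap. It fell by 2.85 (SE 0.592, edgeR adjusted p = 0.0163), and the call ended without aRG library 3 (0.0627) or bRG library 4 (0.078). COL1A1, a fibrillar collagen of fibroblasts, measured 179, 50.8, 86.4 and 112 CPM in aRG and 35.5, 15.0, 11.6 and 26.0 in bRG. It was lower in each bRG library and fell by 2.28 (SE 0.417, edgeR adjusted p = 0.00587), called in every removal.

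Marker lists of other cell types were set beside these genes. The summed level of the 20 choroid plexus and cortical hem genes was 1747 to 8041 CPM in aRG and 374 to 1506 in bRG, and TTR was most of it in aRG. Of the 20, 1 fell, with a list median of -0.20 (0.01 without aRG library 1). An unadjusted p under 0.05 was found for 5, all lower (25.0%, against 6.19% of all genes tested). OTX2, a transcription factor of choroid plexus, stood at -1.44 (edgeR adjusted p = 0.0651) and the folate receptor FOLR1 at -2.13 (adjusted p = 0.262). The summed level of the 17 tested mesenchyme and fibroblast genes was 381 to 651 CPM in aRG and 305 to 502 in bRG, so the ranges overlapped. In this list 1 gene was called (2 without aRG library 2, 4 with DESeq2), 10 had a negative and 7 a positive fold change, and the median was -0.21. COL3A1 stood at -1.95 (adjusted p = 0.067) and COL1A2 at -1.87 (adjusted p = 0.129). The 13 tested endothelial, blood and microglia genes summed to 86.2 to 164 CPM in aRG and 57.9 to 134 in bRG, with a median log2 fold change of 0.74, none called by edgeR and 1 lower at an unadjusted p under 0.05. No gene of these lists was at 0 in all 8 libraries. The part of such cells in the differences of TTR, COL1A1, FBLN1 and MCAM was not tested.

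FBLN1 was the 1 of 53 integrin, laminin and matrix genes that fell (list median -0.21), with 2 called without aRG library 2. This matrix protein fibulin measured 576, 397, 573 and 641 CPM in aRG and 263, 171, 184 and 301 in bRG. No library crossed between the groups (-1.25, SE 0.27, edgeR adjusted p = 0.0211), but the call ended without aRG library 1, 3 or 4 (0.0621, 0.0596 and 0.0931) or bRG library 2 (0.0784). MCAM, a cell adhesion molecule named after its values were seen, measured 287, 279, 184 and 247 CPM in aRG and 122, 133, 73.1 and 101 in bRG. It fell by 1.21 (SE 0.233, edgeR adjusted p = 0.00881) and was called in every removal.

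**Figure D4:**
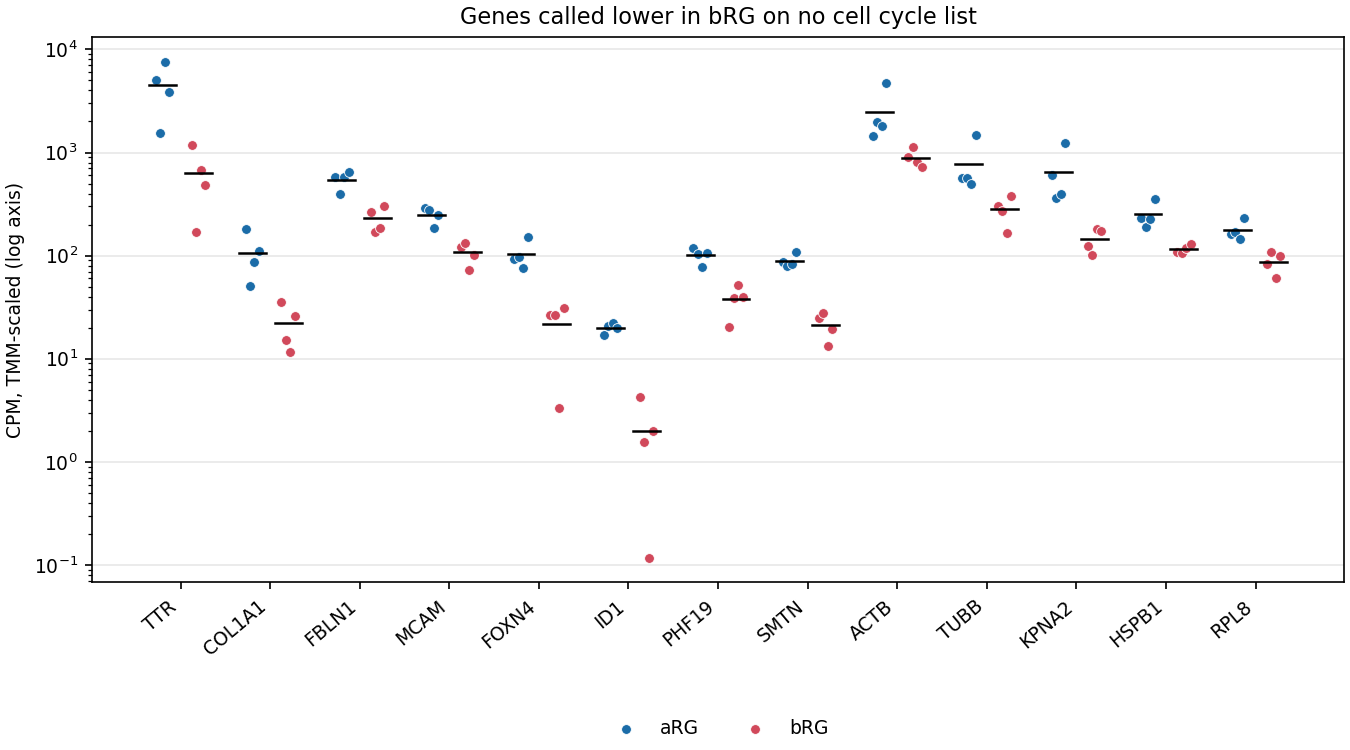
Points are CPM values of single libraries (log axis) for 13 genes called lower in bRG that are on no cell cycle list, 4 aRG and 4 bRG libraries each, with means as black bars. The groups of each gene do not overlap, aRG library 4 is the high point for ACTB, TUBB and KPNA2, and bRG library 3 is the low point for FOXN4 and ID1.

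Among the remaining called genes were 3 of chaperones or ribosomes (median -1.02) and 4 of metabolism or redox (median -1.20). HSPB1, a small heat shock protein, measured 233, 191, 228 and 351 CPM in aRG and 107, 105, 119 and 130 in bRG. The bRG values were nearly equal. It fell by 1.12 (SE 0.214, edgeR adjusted p = 0.0085) and was called in every removal. It was the 1 of 28 heat shock and unfolded protein genes called (3 without bRG library 3, 2 without aRG library 1 or 2). FOS, a transcription factor induced by stimulation, was the 1 of 27 immediate early genes called (0 without bRG library 3). FOS fell by 1.84 (edgeR adjusted p = 0.0387), a call that ended in 6 of the 8 removals, with adjusted p from 0.0739 (without bRG library 1) to 0.161 (without aRG library 3).

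Ribosomal protein genes leaned the same way by small amounts. Of 55 tested, 2 fell, 22 had an unadjusted p under 0.05 in this direction and the median was -0.42. Their summed level was 8144 to 9821 CPM in aRG and 6690 to 6929 in bRG, which did not overlap. RPL8 was at -1.02 (edgeR adjusted p = 0.0246) and RPS15 at -0.94 (edgeR adjusted p = 0.0372). The call of RPL8 ended without aRG library 2 or 4 (0.0507 and 0.174) or bRG library 1 or 4 (0.0899 and 0.051). That of RPS15 ended in every removal but that of aRG library 3, with adjusted p up to 0.222 (without aRG library 4). Genes of this family have many pseudogene copies, so their counts are uncertain. Genes of oxidative phosphorylation (43 tested, median -0.28) and of glycolysis and hypoxia (31, median 0.29) had no called member, with 5 and 3 lower and 1 and 3 higher at an unadjusted p under 0.05. The glycolysis median changed sign with the setting. It was -0.16 without bRG library 3, 0.09 without both libraries numbered 3, and -0.21 with limma-voom and quality weights.

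By edgeR, 5 genes rose in bRG. SLCO5A1, a member of the organic anion transporter family, measured 157, 125, 70.3 and 115 CPM in aRG and 360, 274, 271 and 248 in bRG. Each bRG library was well above the highest aRG library. The log2 fold change was 1.30 (SE 0.242, edgeR adjusted p = 0.0066). It was called in every removal, and in the gorGor6 table it stood at 1.25 without passing (adjusted p = 0.155). In bIP it measured 95.8 to 135 CPM and in N 108 to 119, close to aRG. It was higher in bRG than in bIP (1.35, edgeR adjusted p = 0.00155) and than in N (1.35, edgeR adjusted p = 0.00451), comparisons that share the bRG libraries with the first. At this threshold 8.44% of genes tested were higher in bRG than in bIP and 9.13% higher than in N.

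ST18, a zinc finger transcription factor of the MYT1 family, measured 31.6, 26.8, 30.5 and 28.6 CPM in aRG and 57.2, 67.3, 56.2 and 57.3 in bRG. The values were tight in both groups. It rose by 1.02 on the log2 scale (edgeR adjusted p = 0.0254). In bIP it measured 89.3 to 165 CPM and in N 167 to 236, and it was lower in bRG than in bIP (-1.05, edgeR adjusted p = 0.00419), as were 8.25% of genes tested, and than in N (-1.76, edgeR adjusted p = 9.31e-05), as were 10.6%. CACNA2D1, an auxiliary subunit of voltage-gated calcium channels, measured 84.6, 84.6, 82.3 and 83.5 CPM in aRG and 143, 140, 205 and 144 in bRG. The aRG libraries were alike and bRG library 3 was highest (0.91, edgeR adjusted p = 0.0333). In bIP it was higher still, at 236 to 339 CPM (bRG minus bIP -0.93, edgeR adjusted p = 0.00639).

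CFAP298, a gene of cilium assembly, measured 65.6, 77.2, 36.6 and 45.8 CPM in aRG and 123, 106, 155 and 97.7 in bRG, and rose by 1.10 (edgeR adjusted p = 0.0453). In bIP CFAP298 measured 61.4 to 91.8 CPM (bRG minus bIP 0.68, edgeR adjusted p = 0.119). In N it measured 37.0 to 47.7 CPM (bRG minus N 1.51, edgeR adjusted p = 0.0039). It forms read-through transcripts with its neighbour TCP10L, so reads of the pair are uncertain. TCP10L itself stood at 1.96 (edgeR adjusted p = 0.0861). It was called higher by DESeq2 (adjusted p = 0.00328), by limma-voom with quality weights (0.019), and by edgeR without aRG library 2 (0.0493) or bRG library 3 (0.0444). CFAP298 was the 1 called gene of 33 of motile cilia and axonemes, whose median was -0.15. OR10Q1, an olfactory receptor gene, was barely detected, with 0, 0.714, 0.0957 and 0.206 CPM in aRG and 4.44, 2.34, 6.60 and 3.05 in bRG (edgeR adjusted p = 0.0475). Its fitted log2 fold change of 3.95 depends on the prior count. In bIP OR10Q1 measured 0 to 0.448 CPM and in N 0.187 to 0.368. It was higher in bRG than in bIP (edgeR adjusted p = 0.0165) and than in N (edgeR adjusted p = 0.0365). The calls of ST18, CACNA2D1, CFAP298 and OR10Q1 each ended in 7 of the 8 removals. They were kept without bRG library 3 for ST18, without bRG library 2 for CACNA2D1 and without aRG library 2 for CFAP298 and OR10Q1. The highest adjusted p in the removals came without aRG library 4 for each (0.0905 for ST18, 0.103 for CACNA2D1, 0.198 for CFAP298 and 0.226 for OR10Q1).

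**Figure D5:**
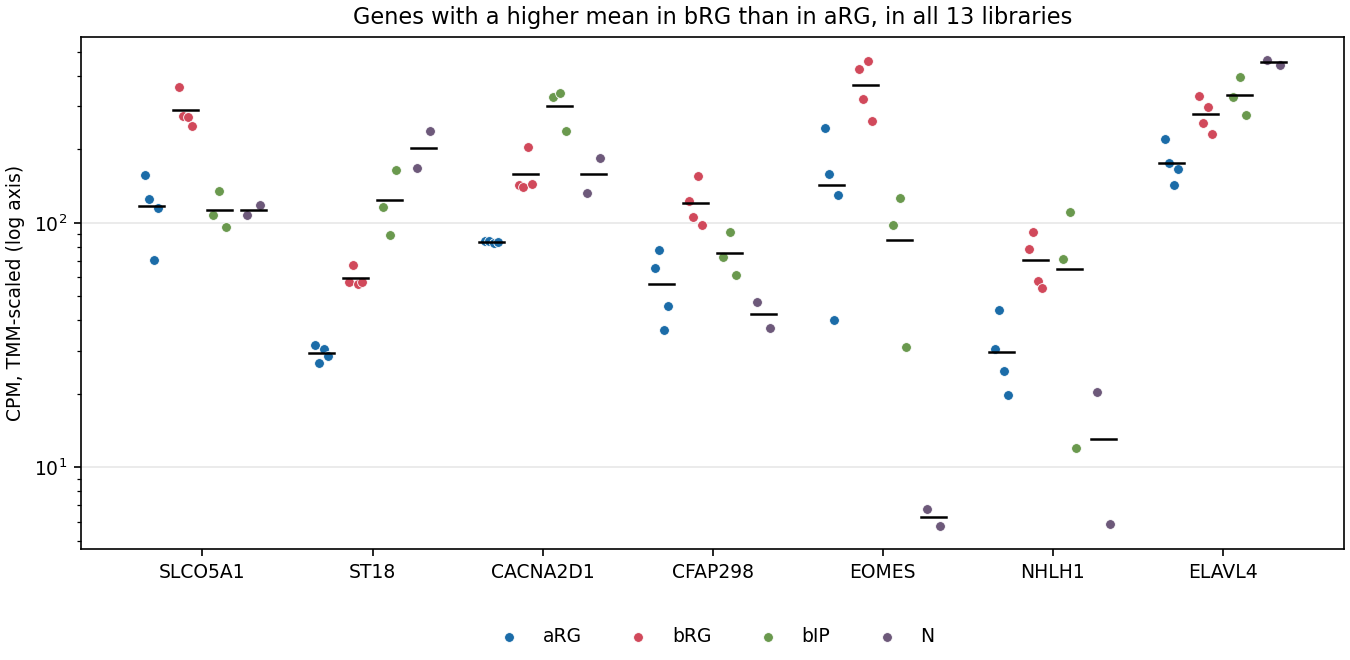
Points are CPM values of single libraries (log axis) for 7 genes with a higher mean in bRG than in aRG, in 4 aRG, 4 bRG, 3 bIP and 2 N libraries, with means as black bars. SLCO5A1 and CFAP298 are highest in bRG, whereas ST18 and CACNA2D1 are higher in bIP than in bRG. EOMES, NHLH1 and ELAVL4 were not called between bRG and aRG by edgeR with all 13 libraries.

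Further genes had higher values in every bRG library without passing edgeR's test. Of all genes tested, 254 (1.51%) lay higher without overlap, and 91 of them had an unadjusted p under 0.05 and a mean log2 CPM of at least 4. For 65 of the 91 the highest bRG value was that of bRG library 3. DNAJC6, the clathrin uncoating factor auxilin, measured 16.3, 17.6, 19.6 and 13.5 CPM in aRG and 23.9, 27.0, 81.2 and 28.5 in bRG. bRG library 3 alone was far above the rest, and the log2 fold change of 1.26 (edgeR adjusted p = 0.112) was 0.66 without it. CREBRF, a regulator of the stress factor CREB3, had 37.4, 39.0, 43.3 and 33.5 CPM in aRG and 52.8, 56.7, 161 and 71.6 in bRG, with the same library high. Its log2 fold change was 1.16 (edgeR adjusted p = 0.0893) and 0.66 without that library. DESeq2 called both DNAJC6 (adjusted p = 0.0167) and CREBRF (0.0129). CREBRF was also called by edgeR without bRG library 1 (adjusted p = 0.0473) or bRG library 2 (0.0499).

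NHLH1, a basic helix-loop-helix factor of newborn neurons, measured 30.4, 44.1, 24.9 and 19.7 CPM in aRG and 78.4, 92.0, 57.6 and 54.1 in bRG. Here bRG library 3 was not the high one. The difference was 1.25 (SE 0.495, edgeR adjusted p = 0.397) and 1.33 without bRG library 3. NHLH1 was called with a term for libraries 1 and 2 against 3 and 4 (1.26, edgeR adjusted p = 0.00788). RCOR2, a CoREST corepressor, measured 53.1, 47.4, 20.0 and 19.1 CPM in aRG and 72.6, 99.7, 68.7 and 60.9 in bRG (1.12, edgeR adjusted p = 0.308), and it too was called with that term (1.26, edgeR adjusted p = 0.0181). The other large positive differences that edgeR did not call were the calcium channel gene CACNA1I (1.08), PHLDB2, which anchors microtubules at the cell cortex (1.06), VWA5A (1.02) and TECTA, the gene of alpha-tectorin (1.00). DESeq2 called PHLDB2 (adjusted p = 0.0393), VWA5A (0.0335) and TECTA (0.00664).

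Neuronal lists held no call by edgeR with all 13 libraries. The pan-neuronal list (19 tested) had a median of -0.08, with 3 lower and 2 higher at an unadjusted p under 0.05. The cortical glutamatergic list (17 tested) had a median of 0.22, with 0 lower and 2 higher, and 0.03 without bRG library 3. In it SLC17A7, a vesicular glutamate transporter, stood at 1.12 (edgeR adjusted p = 0.21). It was called without bRG library 3 (1.35, edgeR adjusted p = 0.0493) and by limma-voom with quality weights (1.43, adjusted p = 0.0383). Of 48 genes of axon and cell guidance, 0 were called, with a list median of 0.07. At an unadjusted p under 0.05, 6 were higher (12.5%, against 3.28% of all genes tested). At the same threshold 2 were lower (4.17%, against 6.19% of all genes tested). PLXNA2, a semaphorin receptor, measured 228, 212, 96.3 and 177 CPM in aRG and 387, 327, 248 and 253 in bRG. It did not overlap, at 0.77 (SE 0.256, edgeR adjusted p = 0.254). It was called by limma-voom with quality weights (1.02, adjusted p = 0.0366). PLXNA4, of the same family, stood at 0.72 and NRP2, a coreceptor of semaphorins, at 0.70, and neither passed.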

How the data were processed

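The deposited data are raw read counts, in 2 tables with 1 row per gene symbol. The table of 18137 genes on the human build hg38 was the main one, and the gorGor6 table (60583 named genes) was an alternative. STAR and hg38 are named per the submitters' processing notes, and the sources used here do not give the annotation, counter or strand setting. A gorGor6 row with a blank name (0.0035% to 0.0059% of counts in the 8 libraries) was left out. Counts were TMM-scaled, filtered with filterByExpr (minimum count 10) and fitted with edgeR 4.0.16 (R 4.3.3), with all 13 libraries and a mean per population. 1 neuron column, named by its population but with a number no label holds, was used as a neuron library. Calls were Benjamini-Hochberg adjusted p-values under 0.05 over 16804 genes, and standard errors were the fold change over the square root of F. Alternatives used DESeq2 1.42.0, its size factors, no filter, gorGor6, the 8 libraries alone, a replicate block, a term for libraries 1 and 2 against 3 and 4, limma 3.58.1 (voom with quality weights) and the removal of each library. Scripts were tested on simulated data. The members and lists were chosen with earlier results of these data known. Named genes were the 5 markers, all genes higher in bRG, the 10 largest falls overall and outside the cell cycle lists, the 12 largest rises (unadjusted p under 0.05), both with mean log2 CPM of at least 4 and no overlap, and per list up to 6 called or 3 smallest-p members. Sequences and positions are not reported here.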

Additional observations from a re-analysis of the deposited data

Results flagged for a closer look

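Among the 4 libraries of a population, 1 sometimes stood far from the other 3. By Dixon's test at its 95% critical value this held in 13 of 92 groups of values. These groups share their libraries and mostly hold genes picked for large differences, so the count cannot be set against a chance rate. bRG library 3 accounted for 5 of the 13. It scored 91.6 on the first principal component of the 8 libraries, against -20.2 to -9.59 in the other bRG libraries. CACNA2D1 measured 205 CPM in it (140 to 144 in the others) and DNAJC6 81.2 (23.9 to 28.5). TROAP measured 10.5 CPM in it (71.4 to 77.8) and FOXN4 3.30 (26.3 to 30.7).

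In the other bRG libraries, ST18 was 67.3 CPM in library 2 (56.2 to 57.3), GAS2L3 21.0 in library 4 (28.7 to 30.3) and RNF26 26.5 in library 4 (9.23 to 11.6). Of the aRG libraries, library 1 had 17065 genes with a count (17489 to 17556 in the others) and 881 CPM of PIF1 (550 to 558). TROAP measured 1001 CPM in aRG library 4 (471 to 543) and CACNA1I 6.60 (14.8 to 16.4). The summed level of the mesenchyme and fibroblast list was 381 CPM in aRG library 2 (619 to 651).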

How the results depend on the processing

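The number of genes called lower in bRG was 206. It was 334 with DESeq2, 284 with voom quality weights, 204 with DESeq2's size factors or without a low-count filter, 191 in the gorGor6 table, 179 in a fit of the 8 libraries and 222 with a term for libraries 1 and 2 against 3 and 4. Leaving out each library in turn gave 130 (without aRG library 4) to 234. The number called higher was 5. It was 40 with DESeq2, 0 in the gorGor6 table, 2 with the 8 libraries, 8 with that term, 14 with voom, and 1 (without aRG library 4) to 8 (without bRG library 2) in the removals. The replicate number as a block gave 250 lower and 9 higher genes. The labels do not say that numbers pair the libraries, so the block was not used. Correlations of same-numbered deviations were 0.112, 0.387, -0.0127 and 0.136, and those of different numbers ran from -0.280 to 0.164. The 0.387, of the libraries numbered 2, was the highest of all pairs, so these values do not show that pairing is absent. Leaving out both libraries numbered 3, chosen after seeing the data, gave 236 lower and 6 higher. With DESeq2 the split by cell cycle lists was 164 on and 170 off, against 139 and 67. No direction of a called gene described here reversed. With 4 libraries a group and no molecular identifiers, small differences may go undetected, and an uncalled gene is not shown to be equal.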
